A study of Mus musculus with 7 samples.

Results

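Cells make most of their ATP with 5 protein complexes of the inner mitochondrial membrane, and the nuclear genes for 4 of them were followed here, complexes I, II, III and V. The members were taken by symbol from the authors' deposited expression table: the Nduf genes of the a, b, c, s and v series, Sdha to Sdhd, the Uqcr genes and the Atp5 genes. Of the 37975 rows of that table, 66 matched these names, and 1 of them, Atp5l2, was left out because the reference lists it as a pseudogene. The remaining 65 members held 62 subunits, with 35 in complex I, 4 in complex II, 8 in complex III and 15 in complex V. The other 3, Ndufa4, Ndufa4l2 and Atp5s, carry matching names and are not subunits of these complexes.

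The series holds binding sites of MyoD, the transcription factor that drives muscle differentiation, in mouse muscle cells, beside gene expression and histone ChIP. The label describes the MyoD sample as taken from an earlier one, so it may not be of the same cultures as the RNA. The growing sample was of primary myoblasts, which were raised from sorted satellite cells of mice aged 4 to 6 weeks and carried an empty retroviral vector. The 2-day sample was of myotubes, also with the empty vector, formed by such myoblasts over 48 hours in medium with 5% horse serum. PolyA RNA was sequenced from both, MyoD ChIP of 2-day myotubes gave a list of 10756 peaks, and the 4 histone ChIP samples of the 7 in the series were not analysed here. The labels name no genotype, sex or number of mice, and the ChIP sample has no vector label.

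Complex I (NADH dehydrogenase) passes electrons from NADH to ubiquinone and pumps protons. Complex II (succinate dehydrogenase) passes electrons from succinate to the same carrier, pumps no protons and is also an enzyme of the TCA cycle. Complex III passes the electrons on to cytochrome c, and complex V (ATP synthase) makes ATP from the proton gradient. Complexes I, III and V also hold subunits encoded in mitochondrial DNA, whereas all subunits of complex II are encoded in the nucleus. Muscle fibres are rich in these complexes, and NRF1, GABP, YY1 and the estrogen-related receptors are known regulators of their nuclear genes.

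Expression was given as FPKM, a count of fragments divided by transcript length and by library size, with 1 value for each gene in each condition. There were thus no replicate values, and errors come only from the authors' own test, Cuffdiff, in their deposited table. Of all genes, 15966 were tested, and called genes are those with the authors' mark of significance, given at a q-value of at most 0.05. The depth was unknown, as no read totals came with the expression table. In this bulk RNA, a change in the make-up of the culture and a change of RNA per cell cannot be told apart. All 5 myotube markers were called higher in 2-day myotubes, with Myh3, an embryonic myosin heavy chain, going from 110.8 to 2362 FPKM. Of the myoblast markers, Pax7 and Myf5 were called lower (the call of Myf5 was lost when values were centred on the median of all tested genes, q = 0.0883), Des was called higher and Myod1 was not called. Summed markers of fibroblasts went from 4.33 to 0.72 FPKM, of adipocytes from 0.272 to 0.228, of endothelium from 4.69 to 0.289 and of immune cells from 31.6 to 27.1, with Lum and Plin1 at 0 in both samples. Of the genes behind those sums, Thy1, Pecam1 and Cd68 were called lower, where 17.3% of all tested genes were. Itgam made up most of the immune sum in both samples, with 20.55 and 24.26 FPKM, and was not called. The other genes behind the sums were not tested by the authors.

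Promoter sequences are shown first for the genes on which the results turn and for which RefSeq (GRCm38.p6) gave a window, namely the called genes Ndufv1 and Atp5d and the genes whose own loci had the peak with the most tags outside other genes and the summit closest to a known 5′ end, Atp5k and Ndufa10. For Atp5d, 1 of its windows is shown. Each run is the 250 bases before the gene start, 5′ to 3′ on the strand of the gene. Capitals mark matches on either strand to any of the motifs listed after them.
Ndufv1 (chr19:4012756-4013005, minus strand): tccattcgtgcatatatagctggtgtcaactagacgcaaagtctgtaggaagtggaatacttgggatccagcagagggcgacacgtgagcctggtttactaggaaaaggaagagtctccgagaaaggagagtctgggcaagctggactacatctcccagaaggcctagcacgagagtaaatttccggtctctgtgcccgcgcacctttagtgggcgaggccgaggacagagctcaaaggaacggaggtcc
Atp5d (chr10:80142065-80142314, plus strand): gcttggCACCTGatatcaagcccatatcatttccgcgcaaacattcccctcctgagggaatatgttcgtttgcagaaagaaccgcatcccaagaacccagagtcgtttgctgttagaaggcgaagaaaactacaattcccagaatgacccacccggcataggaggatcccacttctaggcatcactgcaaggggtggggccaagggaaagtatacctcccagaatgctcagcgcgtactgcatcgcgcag
Atp5k (chr5:108434400-108434649, minus strand): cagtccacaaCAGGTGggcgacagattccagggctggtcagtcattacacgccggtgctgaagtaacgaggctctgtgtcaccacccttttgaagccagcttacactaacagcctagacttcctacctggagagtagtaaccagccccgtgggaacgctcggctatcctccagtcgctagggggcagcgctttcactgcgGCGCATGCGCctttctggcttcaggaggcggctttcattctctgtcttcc
Ndufa10 (chr1:92473759-92474008, minus strand): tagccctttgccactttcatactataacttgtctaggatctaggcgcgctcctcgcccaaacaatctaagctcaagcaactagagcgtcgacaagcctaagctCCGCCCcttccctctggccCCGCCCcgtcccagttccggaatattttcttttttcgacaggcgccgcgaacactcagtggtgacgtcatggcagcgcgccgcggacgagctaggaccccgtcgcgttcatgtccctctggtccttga
The Ndufv1 run held no match to any motif searched. The Atp5d run held an E-box, the kind of site that MyoD binds, the Atp5k run an NRF1 match and an E-box, and the Ndufa10 run a pair of Sp1 matches.

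Windows of 300 bases, 250 before to 50 after the start, were found for 53 of the 62 subunit genes, with 58 windows in all. Both strands were searched, motifs may overlap, and a match is a description of letters and not a bound site. The NRF1 motif, searched in the short form GCGCATGC, stood in 9 of the 58 windows (15.5%), against 2.71% of all 32851 promoter windows of the table and 3.52% of the 21263 windows of protein-coding genes. With any base allowed at the fifth position (GCGCNTGC), which takes in the first form, 25 windows (43.1%) held it, against 9.61% of all windows and 12.6% of those of protein-coding genes. The YY1 motif AAGATGGC stood in 10 windows (17.2%, against 2.75% of all and 3.05% of protein-coding genes). The GABP motif CCGGAAG stood in 13 windows (22.4%, against 8.86% and 11.6%), and the motif TCAAGGTCA of the estrogen-related receptors in 2 (3.45%, against 0.423% and 0.334%), those of Atp5g3 and Sdhd. The Sp1 motif GGGCGG stood in 37.9%, against 35.7% of all windows and 46.2% of those of protein-coding genes. The E-box CACCTG stood in 24.1%, against 20.2% and 19.7%, and the E-box CAGCTG, the form MyoD prefers, in 8.62%, against 16.3% and 15.6%. The 9 matches to GCGCATGC are shown as runs of 30 bases (GRCm38.p6) with the match in capitals, because they let its flanks be compared across genes of all 4 complexes. Where the capitals run over 10 bases, a match on each strand overlapped.
Atp5g2 (chr15:102671070-102671099, minus strand): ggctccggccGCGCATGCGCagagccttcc
Atp5k (chr5:108434430-108434459, minus strand): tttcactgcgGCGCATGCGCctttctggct
Atp5l (chr9:44920963-44920992, minus strand): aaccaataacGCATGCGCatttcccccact
Ndufa11 (chr17:56717692-56717721, plus strand): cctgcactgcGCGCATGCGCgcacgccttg
Ndufa6 (chr15:82354356-82354385, minus strand): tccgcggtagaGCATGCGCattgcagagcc
Ndufa8 (chr2:36049328-36049357, minus strand): tcgctggagacGCATGCGCagatggtaccg
Sdhb (chr4:140961206-140961235, plus strand): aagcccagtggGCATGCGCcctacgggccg
Uqcr11 (chr10:80406807-80406836, minus strand): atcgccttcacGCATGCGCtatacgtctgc
Uqcrc1 (chr9:108936668-108936697, plus strand): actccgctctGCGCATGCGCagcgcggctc
In 4 of these genes, Atp5g2, Atp5k, Ndufa11 and Uqcrc1, the overlap made a palindrome of 10 bases. The match began between 4 bases (Uqcr11) and 240 bases (Atp5l) before the start, and in Uqcrc1 30 bases after it. None of these 9 genes was called, where 6.52% of all tested genes were called higher and 17.3% lower. With so few genes that is no result about the motif. Ndufa6, whose match began 83 bases before the start, had 174.4 and 330.1 FPKM.

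Nearly every subunit gene had a higher level in myotubes, and few passed the test one at a time. The value in 2-day myotubes was above that in growing myoblasts for 61 of 62 subunits, the exception being Ndufc2, while 33.3% of 15146 tested genes (those averaging at least 1 FPKM) were higher. Among the 2063 that averaged at least 100 FPKM, which is nearer to the levels of the subunits, 44.0% were higher. The median log2((FPKM 2-day + 1)/(FPKM growing + 1)) of the subunits was 0.70, a 1.63-fold difference in level, with a range of -0.10 to 1.37 and an SD of 0.29 between genes, and the median over all those tested genes was -0.37. All 62 subunits lay above that median. Genes are not replicates, and all these ratios come from the same pair of libraries.

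The authors' test called 3 subunits higher, Ndufv1, Atp5d and Uqcrq, and none lower, or 3 of 62 where 6.52% of all tested genes were called higher and 17.3% lower, and 9.55% of those averaging at least 100 FPKM were called higher. That share, 4.84%, was near the background and is no result about the subunits. At loci shared with no other tested gene, 2 of 44 subunits were called higher, where 6.91% of such tested genes were. At an unadjusted p of at most 0.05, 13 subunits were higher and 0 lower, where 8.88% of tested genes were higher. Among the 2063 averaging at least 100 FPKM, 263 were higher at that p. Of the 15146 tested genes averaging at least 1 FPKM, 3671 were lower at that p. At a q of at most 0.1, 9 subunits were higher, where 7.89% of tested genes and 239 of the 2063 averaging at least 100 FPKM were. The standard error behind a subunit's log2 fold change, recovered from the authors' deposited table, had a median of 0.54 and ran from 0.24 to 0.67. For 20 subunits the log2 fold change was within 1 standard error of 0, and for 59 the 95% interval also held a doubling. The median error of a single gene was thus larger than the SD of 0.29 between the genes. When the deposited log2 fold changes were centred on the median of all tested genes (-0.41), 16 subunits were called higher, the 3 among them, where 9.94% of tested genes were. Of the 2063 averaging at least 100 FPKM, 333 were called higher after that centring.

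**Figure D1:**
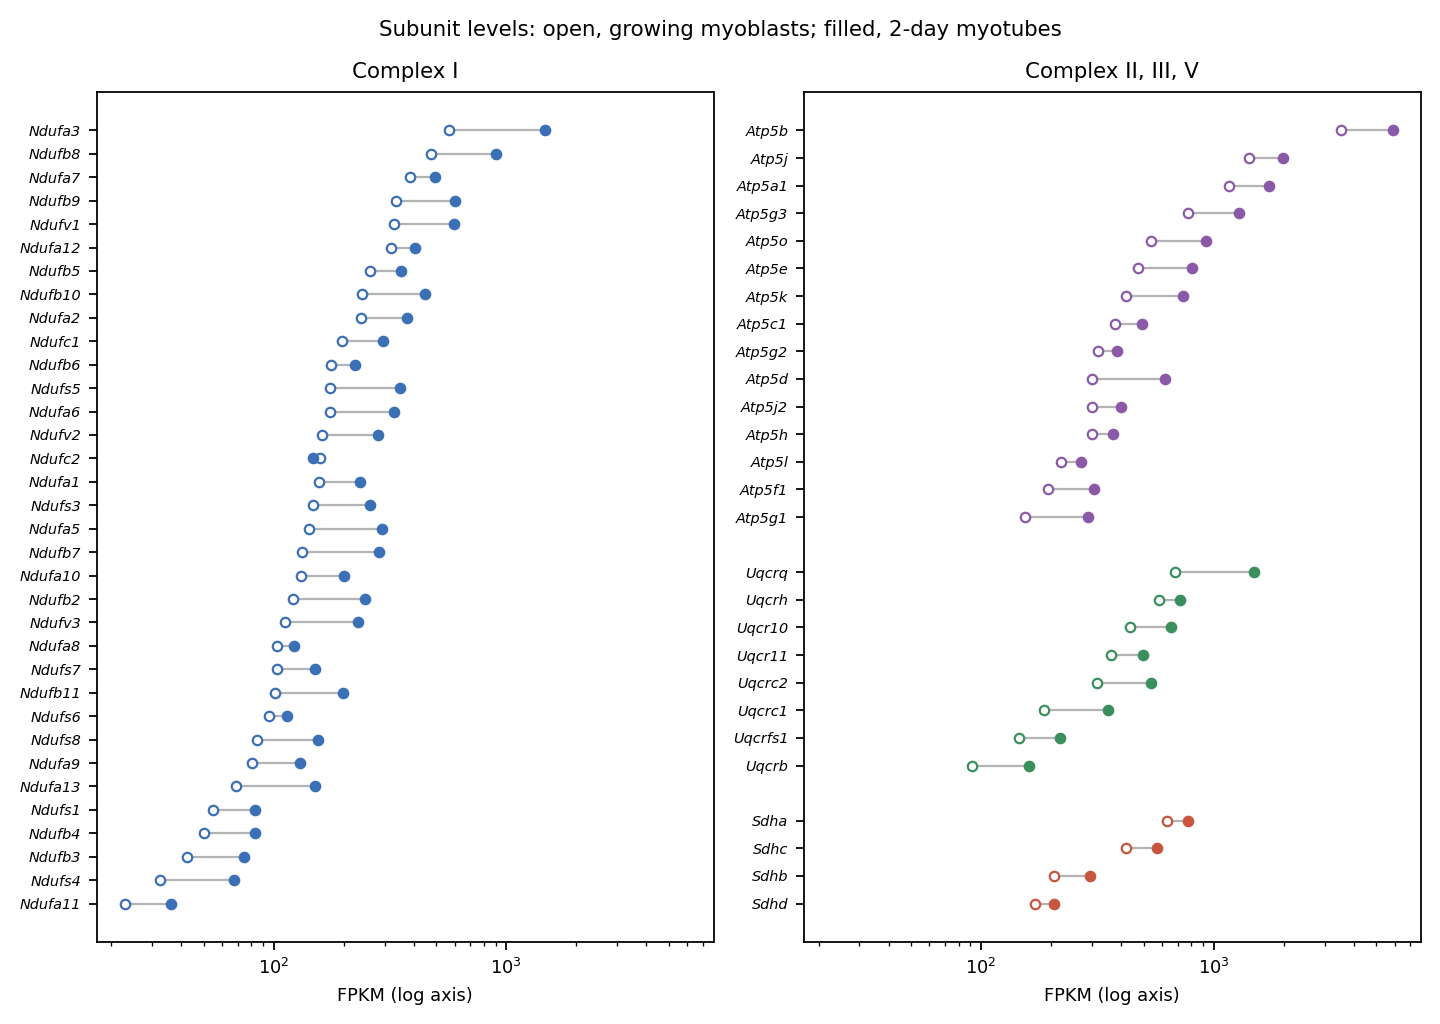
Level of 61 subunits, as FPKM on a log axis, in growing myoblasts (open circles) and 2-day myotubes (filled circles), sorted within each complex by the growing level, with 1 value per condition. Filled points lie to the right of open points in 60 of these 61 genes, and Ndufc2 is the exception.

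Complex I showed the largest median of the 4 complexes, 0.80 on the log2(FPKM + 1) scale. Of its 35 subunits 34 were higher in level in myotubes, 1 of them called, and the summed FPKM went from 6253.6 to 10878 (1.74-fold). The 7 nuclear core subunits, which bind the flavin and the iron-sulfur clusters and carry the electrons, lay close together, with log2 ratios of 0.54 to 0.87 and a median of 0.80.

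Ndufv1, the subunit that binds flavin and receives electrons from NADH, had 329.7 FPKM in growing myoblasts and 596.9 in 2-day myotubes. Its locus is chr19:4007496-4012806 (mm9) and is shared with no other tested gene. It rose by a log2 fold change of 0.86 ± 0.24 (SE) with q = 0.00308 in the authors' deposited table (Cuffdiff). Its standard error was the smallest of any subunit, and its q was the lowest of the 62.

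Ndufv2, which holds an iron-sulfur cluster beside the flavin site, had 160.7 and 280.5 FPKM, with q = 0.0931 in the authors' deposited table (Cuffdiff). Ndufs1, the large iron-sulfur subunit of the same arm, had 54.53 and 82.96 FPKM. Both were higher in myotubes without being called. Ndufs3, an iron-sulfur protein of the matrix arm without a cluster of its own, had 147.5 and 259.8 FPKM (q = 0.082 in the authors' deposited table, Cuffdiff). Ndufs7, which holds the last iron-sulfur cluster before ubiquinone, had 102.8 and 150.0 FPKM. Ndufs8, an iron-sulfur subunit of the same chain, had 84.38 and 155.0 FPKM. None of the 7 core subunits lay within 1 standard error of 0, and Ndufv1 alone was called.

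The 28 accessory subunits of complex I, which surround the core and are needed for its assembly and stability, had a median log2 ratio of 0.76, with 27 higher in level and 0 called by the authors. The Ndufb genes, most of them in the membrane arm, had a median of 0.87 over 10 genes, and the Ndufa genes 0.65 over 12. Ndufa3, a small membrane-arm subunit, had 565.4 and 1466 FPKM, the highest level of any complex I subunit in both samples. Its log2 fold change, 1.37 ± 0.66 (SE), was the largest of all 62 and was not called (q = 0.119 in the authors' deposited table, Cuffdiff). Its share of the summed complex I FPKM was 9.04% in growing myoblasts and 13.5% in 2-day myotubes.

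Ndufc2, a membrane-arm subunit, was the one gene on the other side of 0. It had 158.5 FPKM in growing myoblasts and 148.1 in 2-day myotubes, a log2 fold change of -0.10 ± 0.41 (SE) with q = 0.904 in the authors' deposited table (Cuffdiff). After centring on the median of all tested genes its value was 0.32, on the same side as the others. Its locus in the table is shared with Gm16053, so reads of either may have been counted for it. That doubt holds for all 18 subunits at shared loci, whose median log2 ratio was 0.70, against 0.70 for the 44 at unshared loci. Ndufb8, another membrane-arm subunit, was the accessory gene nearest to a call, with 473.4 and 905.7 FPKM (q = 0.0538 in the authors' deposited table, Cuffdiff). The lowest level in the complex was that of Ndufa11, with 22.83 and 36.31 FPKM.

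The other accessory subunits of complex I spread between these values, and none of those that follow was called. Ndufa13, also known as the cell-death regulator GRIM-19, had 68.52 and 150.4 FPKM and the second largest log2 fold change of the complex, 1.13 ± 0.65 (SE) in the authors' deposited table. Ndufs4, a subunit of the matrix arm whose loss causes Leigh syndrome in humans, had 32.47 and 67.74 FPKM. Ndufa9, which binds a nicotinamide nucleotide, had 80.59 and 130.0 FPKM. These 3 were among the less abundant genes of the complex, and the first pair had more than doubled in listed level without passing the test. Ndufv3, a small subunit beside Ndufv1 and Ndufv2, had 111.4 and 229.6 FPKM. Ndufa5, of the matrix arm, had 141.4 and 292.4 FPKM, and Ndufs5, of the intermembrane side, had 174.6 and 348.0 FPKM. At the low end, Ndufa8, also of the intermembrane side, had 103.6 and 122.3 FPKM, a log2 fold change of 0.24 ± 0.65 (SE) in the authors' deposited table. Ndufs6, a zinc-binding subunit, had 95.44 and 114.0 FPKM, and Ndufa12, near the same site, had 320.1 and 404.7 FPKM. Values of these last 3 lay within 1 standard error of 0.

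Complex II had the lowest median of the 4. All 4 subunits were higher in level in myotubes, none was called, and each lay within 1 standard error of 0. Sdha, the flavoprotein that oxidises succinate, had 631.8 and 774.0 FPKM, the highest level in the complex. Sdhb, the iron-sulfur subunit, had 205.8 and 295.3 FPKM and the largest log2 fold change of the 4, 0.52 ± 0.67 (SE) in the authors' deposited table. Sdhc, a membrane anchor, had 421.7 and 569.9 FPKM. Sdhd, the other anchor, had 169.9 and 205.0 FPKM and the smallest log2 fold change, 0.27 ± 0.67 (SE), in the authors' deposited table. The summed FPKM went from 1429.2 to 1844.3 (1.29-fold), and the median log2 ratio was 0.36. The gap between this median and the 0.80 of complex I was not tested.

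Complex III had a median log2 ratio of 0.68 over 8 genes, all higher in level, 1 called, and its summed FPKM went from 2801.8 to 4631.5 (1.65-fold). Uqcrq, a small subunit close to cytochrome b, had 682.2 FPKM in growing myoblasts and 1494 in 2-day myotubes. It rose by a log2 fold change of 1.13 ± 0.42 (SE) with q = 0.0343 in the authors' deposited table (Cuffdiff), at chr11:53241423-53244333 (mm9), a locus shared with no other tested gene. It was the most abundant subunit of the complex in both samples, and its share of the complex III sum went from 24.3% to 32.3%.

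The core subunits Uqcrc1, Uqcrc2 and Uqcrfs1 each had a smaller log2 fold change than Uqcrq. Uqcrc1, a core protein of the matrix side, had 186.6 and 350.5 FPKM. Uqcrc2, its partner, had 313.6 and 535.4 FPKM, with q = 0.0808 in the authors' deposited table (Cuffdiff). Uqcrfs1, the Rieske iron-sulfur protein that passes the electron on, had 145.7 and 218.1 FPKM. None of them was called, and their median log2 ratio was 0.77. The lowest value of the complex was that of Uqcrh, the hinge protein, with 584.5 and 718.0 FPKM and a log2 fold change of 0.30 ± 0.32 (SE) in the authors' deposited table. Uqcr10 had 436.2 and 658.6 FPKM, Uqcr11 362.0 and 495.4 FPKM and Uqcrb, which binds near the ubiquinone site, 91.02 and 161.2 FPKM, none of them called. Uqcrh was the second most abundant gene in growing myoblasts and took 20.9% of the sum there and 15.5% in 2-day myotubes.

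Complex V held the most abundant subunits and gave about as much FPKM as the other complexes together, 50.0% of the sum over all 62 in growing myoblasts and 48.7% in 2-day myotubes. Complex I made 29.8% and 32.1%, complex III 13.4% and 13.7%, and complex II 6.81% and 5.45%. All 15 subunits of complex V were higher in level in myotubes, 1 called, with a median log2 ratio of 0.66 and sums of 10487 and 16488 FPKM (1.57-fold).

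The F1 head holds the catalytic sites. Atp5b, the catalytic beta subunit, had 3530 FPKM in growing myoblasts and 5891 in 2-day myotubes, the highest level of any subunit in both. Its log2 fold change of 0.74 ± 0.36 (SE) was not called (q = 0.129 in the authors' deposited table, Cuffdiff). Atp5d, the delta subunit of the central stalk, had 299.5 and 616.3 FPKM. It rose by a log2 fold change of 1.04 ± 0.38 (SE) with q = 0.0315 in the authors' deposited table (Cuffdiff). Its locus in the table, chr10:79578547-79608563 (mm9), is shared with Stk11 and Dos. Atp5a1, the alpha subunit that alternates with beta, had 1163 and 1722 FPKM. Atp5c1, the gamma subunit that turns inside the head, had 378.0 and 491.9 FPKM. Atp5e, the small epsilon subunit of the same stalk, had 472.2 and 807.0 FPKM. Of the 5 F1 genes Atp5d alone was called, and it had the lowest level of the 5 in growing myoblasts.

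The c subunit, which forms the proton-driven ring, is encoded by 3 genes whose products differ in the targeting peptide that is cut off in the mitochondrion. Atp5g3 had 775.2 and 1290 FPKM, Atp5g2 319.1 and 383.9 FPKM, and Atp5g1 154.1 and 289.5 FPKM. The order of the 3 was the same in both samples. Atp5g3 made 62.1% of their sum in growing myoblasts and 65.7% in 2-day myotubes, Atp5g2 25.6% and 19.5%, and Atp5g1 12.3% and 14.7%. Their log2 fold changes of 0.74, 0.27 and 0.91, each with a standard error of 0.65 to 0.66 in the authors' deposited table, lay within 1 standard error of one another. Atp5g2 had the lowest log2 fold change of the complex. Reads from the near-identical mature parts of these genes may have been split between them in the authors' counting.

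The stalk and membrane subunits of complex V had the lower medians. The peripheral stalk genes, which hold the head still, had a median log2 ratio of 0.57, and the genes for small membrane subunits 0.42. Atp5o, a stalk subunit, was the one nearest to a call, with 539.2 and 931.0 FPKM (q = 0.0561 in the authors' deposited table, Cuffdiff). Atp5f1, the long b subunit of the stalk, had 193.6 and 306.5 FPKM, and Atp5j, which codes for coupling factor 6 of the stalk, had 1423 and 1983 FPKM, the second highest level of the complex in both samples. Neither was called. Atp5j2, the f subunit of the membrane part, had 299.3 and 401.2 FPKM. Atp5l, the g subunit there, had 221.7 and 268.2 FPKM. Its pseudogenes Atp5l2, with 283.3 and 373.1 FPKM, and Atp5l-ps1, with 188.1 and 248.2 FPKM, were listed at similar levels, and reads may be shared among the 3.

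**Figure D2:**
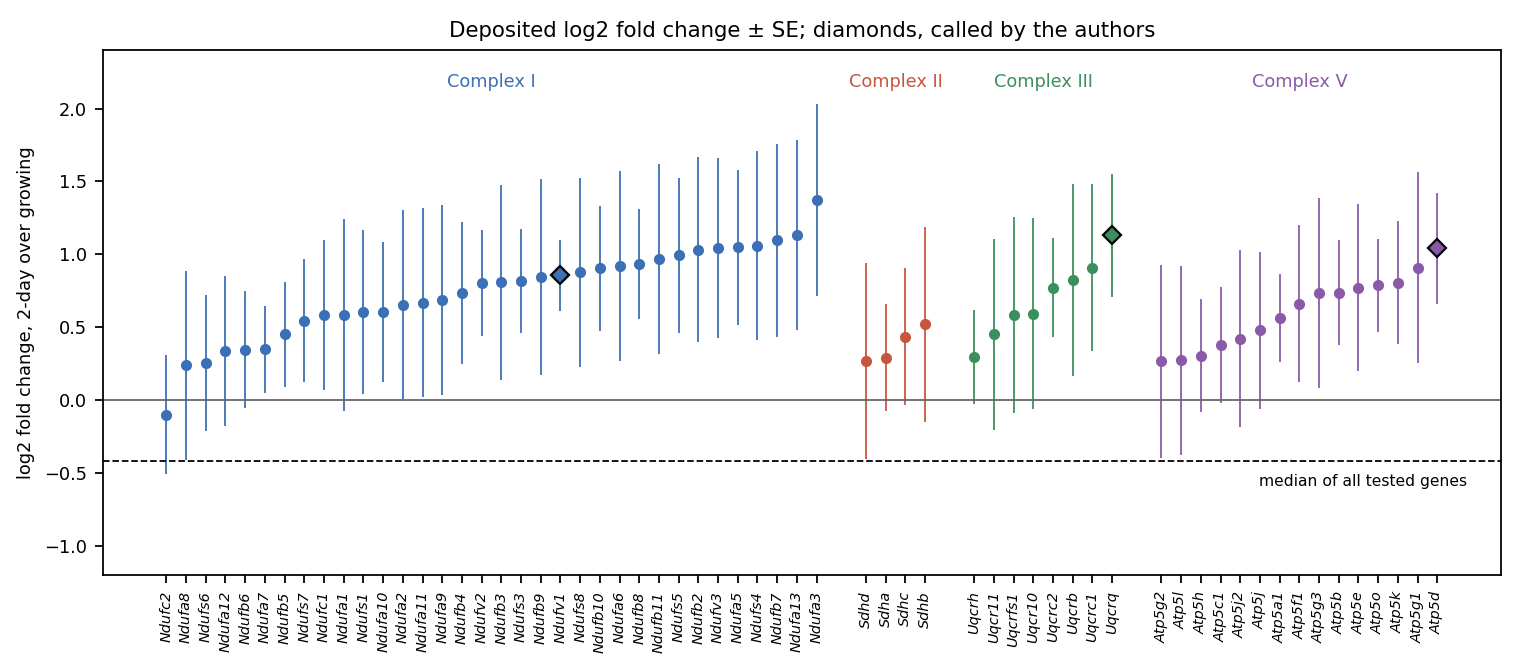
Log2 fold change of 2-day myotubes over growing myoblasts from the authors' deposited table, with its standard error as bars, for 61 subunits sorted within each complex, called genes as diamonds, and the median of all tested genes (-0.41) dashed. Called genes are Ndufv1, Uqcrq and Atp5d, and Ndufa3 has a larger value, 1.37, with a wider bar.

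Across the 62 subunits the level in growing myoblasts went with the level in 2-day myotubes, with a Pearson's r of 0.98 and Spearman's rho of 0.97 on log2 FPKM. Between the log2 ratio and the level in growing myoblasts r was -0.12 and rho was -0.17. Both are descriptions over genes of the same pair of libraries. The subunits kept nearly the same order of abundance, with Atp5b at the top and Ndufa11 at the bottom in both.

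The 3 matching names outside the complexes are given by their values, and none was called. Ndufa4, which is a subunit of complex IV despite its name, had 734.9 and 770.5 FPKM, with a log2 fold change of 0.07 ± 0.67 (SE) in the authors' deposited table. Its paralog Ndufa4l2 had 0.603 and 0.783 FPKM and was not tested by the authors. Atp5s, a coupling factor that is not a stable part of ATP synthase, had 6.27 and 6.09 FPKM. Subunits and regulators of the complexes that the naming rule leaves out were looked at as a list of 5, Ndufab1, Cyc1, Usmg5, 2010107E04Rik and Atpif1, of which 4 were higher in level, 0 were called and the median log2 ratio was 0.38.

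The partner subunits encoded in mitochondrial DNA had values on the other side of 0. All 13 were lower in level in myotubes, 0 were called, and the median log2 ratio was -0.53, with a range of -0.98 to -0.13. Their summed FPKM went from 69646 to 45185, a ratio of 0.649. The standard errors were wide, 0.67 to 1.75 in the authors' deposited table. For the 10 that belong to complexes I, III and V the median was -0.51, and their sum went from 42986 to 28881 FPKM. Against the median of all tested genes, which was itself below 0, the median of the 13 was -0.16, and 12 lay below and 1, mt-Nd3, above. The direction of mt-Nd3 thus flipped with that centring. The libraries were of polyA RNA, per the labels, and how that selection bears on mitochondrial transcripts was not tested.

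Assembly factors help to build the complexes and do not stay in them. Of 26, 11 were higher in level (42.3%, against 33.3% of tested genes) and 1 was called higher (3.85%, against 6.52%), with a median log2 ratio of -0.09 where all tested genes had -0.37. Of the 26, 18 (69.2%) lay above that median of all genes, and 4 were called higher after centring, which called 9.94% of tested genes higher. The difference from the subunits was not tested. Medians were -0.05 for the 13 factors of complex I, -0.09 for the 4 of complex II, 0.02 for the 6 of complex III and -0.20 for the 3 of complex V. The called gene, 2900010M23Rik (Uqcc2 in the reference), acts in the making of cytochrome b and had 184.2 and 378.9 FPKM. It rose by a log2 fold change of 1.04 ± 0.37 (SE) with q = 0.0229 in the authors' deposited table (Cuffdiff).

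Other genes of oxidative metabolism had medians below the 0.70 of the 62 subunits and close to the 0.36 of complex II. Of 16 nuclear complex IV genes, 3 rose (18.8%, against 6.52% of tested genes called higher), 2 fell (12.5%, against 17.3% called lower) and the median log2 ratio was 0.37. Those that rose are muscle forms: Cox6a2 went from 41.34 to 676.7 FPKM, Cox8b from 66.87 to 677.8 and Cox7a1 from 15.25 to 100.2. Those that fell were Cox6b2, a testis form, from 116.2 to 19.58 FPKM, and Cox4i2, from 1.255 to a listed value of 0. Cox4i2 had no finite log2 value, so it could not be centred and kept its deposited p. Its Benjamini-Hochberg q was 0.0544 when the other genes were centred. No subunit of complexes I, II, III or V had a log2 fold change beyond 1.37 in the authors' deposited table, where Cox6a2 had 4.03. Of 14 TCA cycle genes other than those of complex II, 11 were higher in level (78.6%, against the same 33.3%), with a median log2 ratio of 0.34. The 1 called higher (7.14%, near the background of 6.52%) was Idh3g, a subunit of isocitrate dehydrogenase. It had 221.7 and 464.9 FPKM (q = 0.00389 in the authors' deposited table, Cuffdiff). Of 8 genes for known regulators, 7 were lower in level, as were 10104 of the 15146 tested genes averaging at least 1 FPKM. Their median log2 ratio was -0.58, which is -0.21 relative to the median of all tested genes. Among them 1 was called lower (12.5%, against 17.3% of tested genes), which is no result about regulators. Gabpb1, the partner of the DNA-binding GABP subunit, fell from 43.2 to 18.8 FPKM (q = 0.00529 in the authors' deposited table, Cuffdiff), a call lost when values were centred on the median of all genes.

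**Figure D3:**
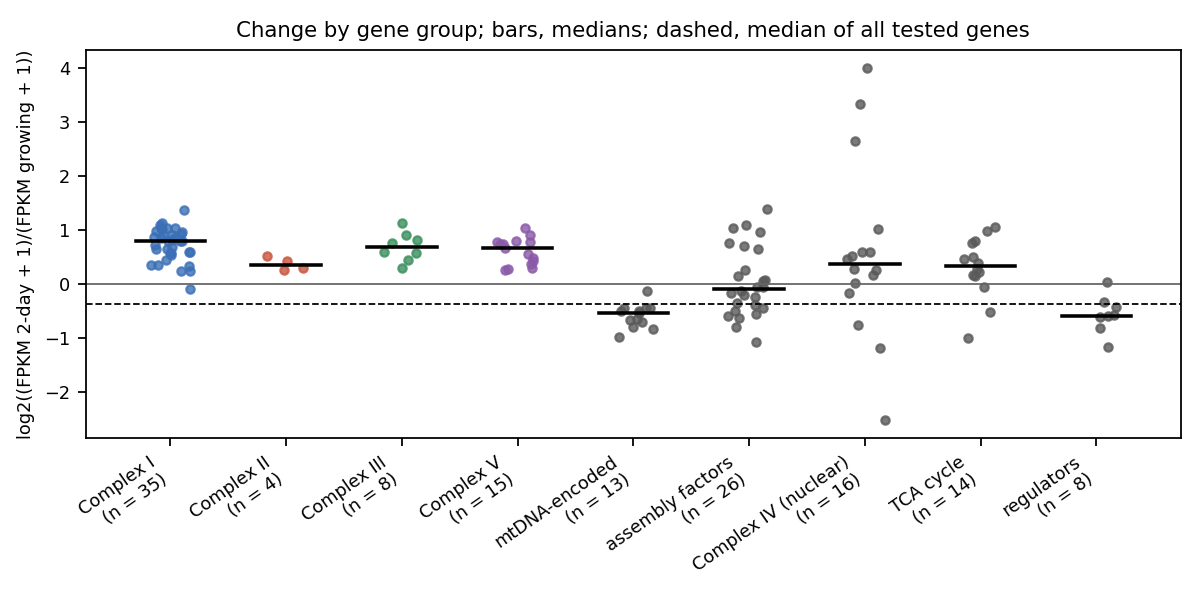
Log2 ratio of FPKM + 1, 2-day over growing, for each gene (points) of the 4 complexes and of the other lists, with the median of each list as a bar and the median of all tested genes averaging at least 1 FPKM (-0.37) dashed. The 4 complexes have medians of 0.36 to 0.80 and the mtDNA-encoded genes -0.53.

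MyoD peaks were next asked for at the same genes. A summit lay in the locus or within 10 kb for 19 of 62 subunits, 30.6% (exact Clopper-Pearson 95% interval 19.6% to 43.7%), where 38.9% of 15930 tested genes had one. The background lies inside that interval, which is a description and not a test. Intervals here cover counting error only, treat genes as independent and leave out the error of the ChIP sample. With the summit inside the locus, 8 subunits had a peak, 12.9% (5.74% to 23.9%), where 27.6% of tested genes did. With peaks of a false discovery rate of at most 5%, 1 subunit had one, 1.61% (0.0408% to 8.66%), where 11.7% of tested genes did. Those backgrounds lie above the intervals, and subunit loci were shorter, with a median of 9339 bases against 26499, whose part in the difference was not tested. Within 5 kb the shares were 22.6% and 34.6%. By complex, 11 of 35 genes of complex I, 1 of 4 of complex II, 0 of 8 of complex III and 7 of 15 of complex V had a summit. Complex III genes with no summit allow a share of up to 36.9% (upper bound of the exact interval).

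Loci in this table are merged regions, and 7 of the 19 genes share theirs with other tested genes. Atp5o, with 5 summits, lies in a region of 315411 bases shared with Itsn1, Donson, Son and Cryzl1. Atp5d, Ndufs3, Atp5b, Ndufv2, Ndufb5 and Ndufb6 were the others. Ndufb5 had 258.0 and 353.0 FPKM and Ndufb6 176.2 and 224.4 FPKM, both accessory subunits of the membrane arm and neither called. At loci of their own, 12 of 44 subunits had a summit (27.3%, against 32.8% of tested genes at unshared loci), with 13 summits, of which 8 lay inside the locus of another tested gene. The remaining 5 summits belonged to Ndufa10, Atp5k, Ndufa7, Ndufb9 and Atp5g3.

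The one with the most tags of these was upstream of Atp5k, the e subunit of ATP synthase. The peak at chr5:108865030-108865751 (mm9) held 47 tags at 20.56-fold enrichment, per the authors' peak caller, and its summit was 1809 bases upstream of the 5′ end of the locus. It was the only one of the 27 peaks at subunits with a false discovery rate of at most 5% (3.01%), where 19.4% of all 10756 peaks had one. Atp5k had 420.9 and 736.4 FPKM, a value that was not called (q = 0.158 in the authors' deposited table, Cuffdiff). The promoter run printed for it reaches 250 bases upstream and does not hold that summit.

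Among genes whose strand the reference gave, the summit nearest to a 5′ end was that of Ndufa10, an accessory subunit on the matrix side of the complex, 77 bases inside its locus. That peak, at chr1:94369880-94370763 (mm9), held 34 tags at 7.5-fold enrichment with a false discovery rate of 14.71%. Ndufa10 had 131.5 and 200.3 FPKM and was not called. Neither E-box searched stood in its 300-base promoter window. At Ndufb9 a peak of 18 tags had its summit 1 base outside the locus, before the end with the lower coordinate. No strand was at hand for Ndufb9, so whether that is its 5′ end, nearer than at Ndufa10, was not known. At Ndufa7, an accessory subunit, a peak of 7 tags had its summit 1057 bases inside. Ndufb9 had 333.9 and 600.3 FPKM and Ndufa7 386.9 and 493.1 FPKM, and neither was called. The peak by Atp5g3 held 8 tags and lay 8986 bases off.

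The other peaks at unshared loci lay within neighbouring genes. The Sdhb peak, of 37 tags and 3435 bases upstream, lay in the locus of Padi2 and Gm13031, and the Ndufs7 peak, of 32 tags, in that of Dazap1 and Gm15122. The Atp5h peak, of 7 tags and 1085 bases upstream, lay in Kctd2, the Ndufv3 peak in Wdr4, the Ndufb10 peak in Rps2 and the Atp5g1 peak in Ube2z. The second Atp5k peak lay in Mfsd7a. Of these genes Ndufb10, an accessory subunit of the membrane arm, had 239.6 and 448.3 FPKM, and Atp5h, the d subunit of the stalk, had 298.5 and 369.1 FPKM, neither of them called. The Ndufv1 peak, of 7 tags and past the 3′ end, lay in Nudt8, Doc2g and Gm16312. Among called subunits, Uqcrq had no summit within 10 kb, the summit of Ndufv1 fell in other genes, and the distances of the 3 summits listed for Atp5d are counted from the ends of a locus it shares with other genes.

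Peaks at subunits had a median of 16 tags and 11.1-fold enrichment, against 14 tags and 15.3-fold over all peaks. Subunits with a summit had a median log2 ratio of 0.79 over 19 genes with 2 called, and those without one 0.65 over 43 genes with 1 called. The same split over all tested genes averaging at least 1 FPKM gave -0.29 and -0.41. Of those genes, 582 of 5925 with a summit and 396 of 9185 without one were called higher. The median of the subunits was above 0 with and without a summit. Of the matching names outside the complexes, Ndufa4l2 and Atp5s had summits within 10 kb.

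**Figure D4:**
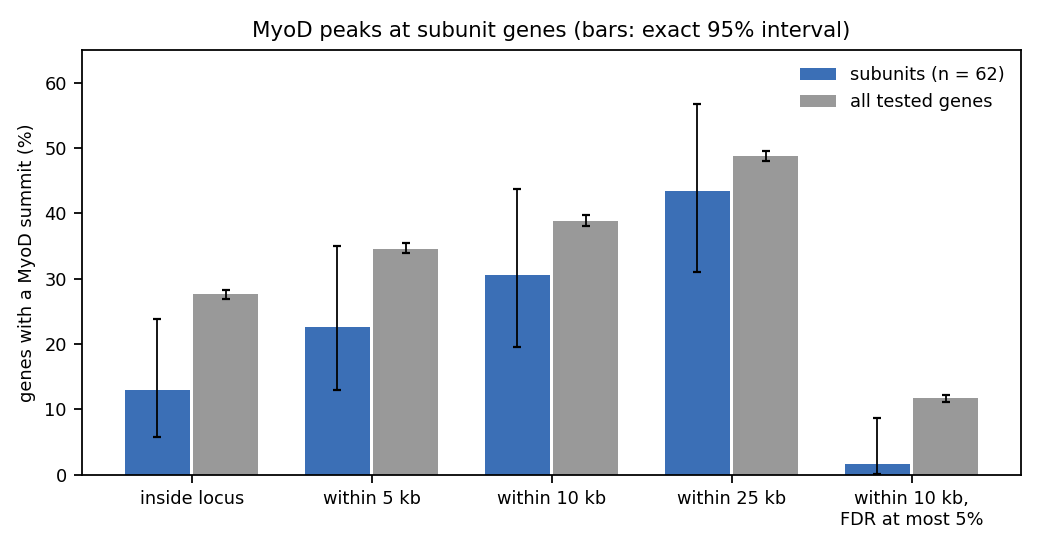
Share of genes with a MyoD summit under 5 definitions, for the 62 subunits and for all 15930 tested genes, with exact 95% intervals as bars. Subunit shares run below the shares of all genes under each of the 5, from 1.61% against 11.7% for peaks with a false discovery rate of at most 5% to 43.5% against 48.8% within 25 kb.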

How the data were processed

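The authors deposited FPKM in a Cuffdiff gene table, with 1 value for each gene in each condition. The submitters' processing notes name CASAVA 1.7.0, Cuffdiff, MACS 1.3.7 and the mm9 build. The aligner, annotation release and normalization setting are not stated in the labels or headers, nor is how the duplicates that the protocol mentions were combined. The p-values and q-values are the authors' own, from Cuffdiff, over all 15966 tested genes. Standard errors of log2 values were obtained by dividing the size of the deposited log2 value by the deposited test statistic, and p-values recomputed from them differed from those deposited by at most 2.68e-06. Each condition has 1 sample, so no test was run across samples. An interval of 95% is taken from that standard error. Centred calls subtract the median of all tested genes, keep the standard error and use Benjamini-Hochberg adjustment over all tested genes. Tested genes without a finite log2 value or standard error were not centred and kept their deposited p in that adjustment. The step was checked on simulated data. In FPKM ratios a pseudocount of 1 was added, which understates the change of low genes. In the expression table a locus is a merged region, and 18 of the 62 subunits share theirs with other tested genes.

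Peaks were called with MACS on 1 treatment against 1 control, per the file headers, which give 8637045 tags in the treatment and 9129012 in the control. The nature of the control is not stated in the headers or labels. The label describes the MyoD sample as taken from an earlier one, and the antibodies listed in the protocol include none against MyoD. Tags per peak are counts, the p score is a multiple of the −log10 of p, fold enrichment is a ratio and the false discovery rate is a percent, all per the file headers. Peak values are the authors' own.

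Promoter windows are from RefSeq (GRCm38.p6), joined by symbol or gene identifier, and no coordinate was moved between builds. The NRF1 motif was searched in a short form chosen after a longer one had been tried. Assembly factors listed under older symbols were matched through RefSeq synonyms. Named in full were called members, the extremes and the most abundant gene of each complex, core, F1 and c subunit genes, all of complex II, members with a peak and the 3 non-subunits. Values of 1 member are counted in the totals and not reported here. Members nearest to a call, those set beside pseudogenes and the further accessory, small and stalk subunits given were named after their values were seen. The members and lists were chosen with earlier results of these data known. Python 3.11.15, pandas 2.3.3, numpy 2.4.6, scipy 1.17.1 and matplotlib 3.10.9 were used.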

Additional observations from a re-analysis of the deposited data

How the results depend on the processing

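The median log2 ratio of all 62 subunits stayed above 0 under each pseudocount, filter, locus and scaling alternative, from 0.64 with a pseudocount of 10 to 1.08 when centred on all tested genes. Medians of the 4 complexes and of the mtDNA-encoded genes, and the ratios of summed FPKM, kept their direction under each alternative run for them. Their size depended on the scaling: centring took complex I from 0.80 to 1.17, II from 0.36 to 0.73, III from 0.68 to 1.05, V from 0.66 to 1.03 and the mtDNA-encoded genes from -0.53 to -0.16, and rescaling by summed FPKM gave 0.97, 0.54, 0.86, 0.84 and -0.35. For complex V the median was 0.49 at unshared loci. The count of calls was less stable: 3 subunits by the authors' mark, 9 at a q of at most 0.1 (7.89% of tested genes), 16 after centring, and 2 at unshared loci. Centring gave 13 further subunits a call and took none away, and it turned the direction of Ndufc2 (q = 0.675). Subunits with a MyoD summit numbered 19 within 10 kb, 14 within 5 kb, 27 within 25 kb, 8 inside the locus, 1 with a false discovery rate of at most 5%, and 12 at unshared loci. That last setting, the limit of 100 FPKM and both scalings of the mtDNA-encoded genes were chosen after seeing the data. No paired analysis was possible because each group has 1 sample, and no replicate could be left out. With 1 FPKM value per condition, errors rest on the authors' test alone.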

Other observations

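The 65 members lay on 19 chromosomes, and some lay close to members of other complexes in mm9. On chromosome 10, Atp5d, Ndufs7 and Uqcr11 followed one another with gaps of 103301 and 146201 bases and log2 ratios of 1.04, 0.54 and 0.45. Ndufs8 and Ndufv1, both core subunits of complex I, lay 94778 bases apart on chromosome 19 with log2 ratios of 0.87 and 0.85. Whether neighbours share their values more than other pairs was not tested.

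Of the 10 YY1 matches in subunit promoter windows, 8 began after the gene start, from 22 bases after it in Ndufa3 and Ndufc1 to 38 in Ndufb8. The match of Atp5f1 began 3 bases before the start and that of Atp5j 88 bases before it. These positions are a description, with no test.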
